A study of Mus musculus with 12 samples.

Results

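The genes described here are 4 members of the Ly6 family of surface antigens, Ly6g, Ly6c2, Ly6e and Ly6a, followed in mouse blood neutrophils. They were found by matching the NCBI Gene IDs of the deposited expression table to the symbols, which gave Ly6g (Gene ID 546644), Ly6c2 (100041546), Ly6e (17069) and Ly6a (110454), 4 of the 9374 genes in the table. The mice were female and carried either the WT label or the name Hmgb1ΔMye, which the sample descriptions shorten to KO. ΔMye is a name used for a deletion in myeloid cells, and Hmgb1 encodes a chromatin protein that also acts outside cells as an alarm signal. The mice received saline or 0.5 mg/kg lipopolysaccharide (LPS), a component of the bacterial outer membrane that is sensed by Toll-like receptor 4, and neutrophils were collected after 16 hours. This gave 4 groups of 3 libraries, KO-Saline, KO-LPS, WT-Saline and WT-LPS. The sources used here do not give the strain background, the Cre line, the ages or the way neutrophils were isolated. They also do not say whether each library stands for its own mouse, so a p-value here reflects the spread among libraries, which may be technical.

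Ly6 proteins are small, cysteine-rich proteins of the Ly6/uPAR family, most of them held in the outer leaflet of the plasma membrane by a glycosylphosphatidylinositol (GPI) anchor. In mouse blood Ly6G is the standard surface marker of neutrophils and Ly6C that of inflammatory monocytes, although neutrophils carry Ly6C as well, and the antibody Gr-1 sees both. Ly6e and Ly6a, which encodes Sca-1, the stem cell antigen, are known as genes that respond to interferon.

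The 4 genes lay in 1 cluster on chromosome 15 in mm10, between 74955051 and 75159126, a span of 204076 bases. GENCODE M21 annotates 13 genes there, of which 6 are protein-coding, and all 6 were in the table, since Ly6i and Ly6c1 were also measured. Ly6e ran from 74955051 to 74959905 and Ly6g from 75155240 to 75159126, both on the plus strand. Ly6a ran from 74994877 to 74998031 and Ly6c2 from 75108158 to 75111970, both on the minus strand. No exon of these genes overlapped an exon of another gene on either strand. The first 60 coding bases of the 6 genes are shown as an example of how alike the members are. This short stretch does not rank Ly6a and Ly6c1 by likeness to Ly6c2 as the whole coding sequence does. The bases were read from GENCODE M21, 5′ to 3′, and a capital marks a base that differs from Ly6c2 at the same place.

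Ly6c2: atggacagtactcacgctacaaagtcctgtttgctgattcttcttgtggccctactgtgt
Ly6a: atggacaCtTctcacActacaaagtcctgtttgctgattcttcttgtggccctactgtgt
Ly6c1: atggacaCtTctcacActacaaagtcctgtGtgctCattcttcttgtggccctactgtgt
Ly6i: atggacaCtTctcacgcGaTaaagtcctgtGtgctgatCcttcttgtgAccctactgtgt
Ly6g: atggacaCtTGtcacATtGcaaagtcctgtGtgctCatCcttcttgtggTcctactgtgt
Ly6e: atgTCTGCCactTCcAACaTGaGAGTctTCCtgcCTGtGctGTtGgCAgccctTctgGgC

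In these 60 bases Ly6a differed from Ly6c2 at 3 places, Ly6c1 at 5, Ly6i at 7, Ly6g at 10 and Ly6e at 32. Over the whole coding sequence Ly6c1 and Ly6c2 were 97.7% identical, Ly6a and Ly6c2 81.7%, and Ly6c2 and Ly6g 77.5%, while Ly6e was 48.2% to 52.6% identical to the other 5. Of all 50-base windows of the annotated transcripts, 14.5% of those of Ly6c2 and 19.0% of those of Ly6a also occurred in another gene, most often in Ly6c1 (13.9% and 15%). The share was 0.448% for Ly6g and 0 for Ly6e. Of 100-base windows, 5.81% were shared for Ly6c2, 1.45% for Ly6a and 0 for Ly6g and Ly6e. Values of Ly6c2 and Ly6a therefore carry some uncertainty on which copy the reads came from, and those of Ly6e and Ly6g far less. For Ly6a this uncertainty was small at 100 bases.

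Upstream sequence is shown for Ly6g and Ly6c2 because only these 2 of the 4 members have a promoter window in the RefSeq table (build GRCm38.p6). Their LPS differences in WT were also the highest of the 4 genes, and a link between sequence and response was not tested. Each stretch ends before the annotated start of the gene. Capitals mark the letters GAGGAAGT, a site form bound by the myeloid factor PU.1, and in Ly6g also TTGAGCAA, a match on the other strand to the C/EBP letters TTGCNNAA. Ly6g is read on the plus strand at chr15:75155011-75155239 and Ly6c2 on the minus strand at chr15:75111972-75112221.

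Ly6g: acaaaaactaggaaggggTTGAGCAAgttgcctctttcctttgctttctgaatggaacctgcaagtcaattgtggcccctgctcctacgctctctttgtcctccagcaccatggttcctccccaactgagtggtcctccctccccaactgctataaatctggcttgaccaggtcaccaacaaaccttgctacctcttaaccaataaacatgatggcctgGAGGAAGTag
Ly6c2: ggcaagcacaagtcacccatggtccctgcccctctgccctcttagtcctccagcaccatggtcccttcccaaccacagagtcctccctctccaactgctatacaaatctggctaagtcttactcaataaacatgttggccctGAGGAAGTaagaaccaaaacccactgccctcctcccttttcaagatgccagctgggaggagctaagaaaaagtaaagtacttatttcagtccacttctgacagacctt

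The 2 genes have 4 windows of 300 bases in the table, from 2 annotated starts each. GAGGAAGT, searched on both strands, occurred 2 times in 3 of these windows and 1 time in the other. The 2 windows of a gene overlap for most of their length, so they largely hold the same sites. Ly6c1, the near copy, held it 1 time in 1 of its 2 windows. Windows of Ly6g and Ly6c2 were 42.2% to 72.5% identical to each other, so they are not unrelated sequences. Of the 32851 windows of all genes, the windows described here included, 3.202% held it at least once and 20 held it 2 or more times. Only the Ly6g window shown held the C/EBP letters, which 10.8% of all windows hold. None of the 4 windows held the interferon response letters GAAANNGAA (8.56% of all windows), TTCNNNGAA (8.298%), the kappa-B letters GGGANNTTC (3.942%) or the AP-1 letters TGANTCA (7.808%). A match to letters is a description of the sequence and shows no binding.

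The libraries were shallow, with 399702 to 526757 reads in the table, so that 1 read was worth about 1.86 to 2.67 CPM (counts scaled to a common library size, as the deposited values are) and a gene with 0 reads could have had up to 5.58 to 8.0 CPM (a floor of 3 reads per library; floors and intervals cover counting error only). Hmgb1 gave 14, 10 and 25 reads in KO-Saline libraries, 6, 30 and 16 in KO-LPS libraries, 8, 17 and 12 in WT-Saline libraries and 14, 15 and 34 in WT-LPS libraries. KO-labelled and WT libraries differed by 0.16 ± 0.40 log2 (limma, averaged over treatments, adjusted p = 0.978), so the counts did not show a loss of Hmgb1 and genotype rests on the labels alone. Whether the reads counted for Hmgb1 lie in the deleted part is not stated. Exons of Hmgb1 also overlap those of Mm2pr on the same strand and, over 42 bases, those of Uspl1 on the other strand. These counts are therefore no firm check of the deletion. KO-LPS replicate 1 stood apart: its mean correlation was 0.837 with WT-Saline and 0.838 with KO-Saline libraries, against 0.786 with its own group, and its summed level of specific granule genes was 4476 CPM against 19649 and 19247 in the other 2. Of the 14 neutrophil markers all were measured, with summed levels of 14530 to 23821 CPM, and S100a9, a subunit of calprotectin, ranked 11 by reads. Of 12 monocyte and macrophage markers 6 were measured, at 386 to 612 CPM in all, and Ccr2 and Cx3cr1 were among those not analysed here.

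The library kit marks the strand of origin, but the sources used here do not give the strand setting of the counting. In 43 of 58 pairs (74.1%, 95% exact binomial interval 61.0% to 84.7%) of a long non-coding RNA and a measured protein-coding gene with overlapping exons on opposite strands, the non-coding RNA had more reads. The helicase gene Ddx39a ranked 1 with 11344 reads per library, against 688 for Adgre5, the gene on its other strand. If the opposite setting had been used, the values of the Ly6 genes and of Hmgb1 would be of RNA antisense to them, which was not tested.

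In WT neutrophils all 4 Ly6 genes rose with LPS. Ly6c2 rose most, by 3.67 ± 0.45 log2 (SE), followed by Ly6g, Ly6e and Ly6a, whose rise was close to the threshold. The WT-LPS libraries lay above every WT-Saline library for each of the 4 genes. Among all genes, 6.72% were called higher in WT-LPS, and 16.5% had all 3 WT-LPS libraries above all 3 WT-Saline libraries.

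Ly6c2, which encodes one of the Ly6C antigens, gave 8, 12 and 27 reads in WT-Saline (19.4, 25.4 and 50.3 CPM) and 204, 176 and 171 reads in WT-LPS (484, 371 and 318 CPM). The lowest LPS library thus lay far above the highest saline library, and the group means were 31.7 ± 16.4 and 391 ± 84.6 CPM (SD, n = 3). Its limma adjusted p was 2.96e-06 and its 95% interval 2.76 to 4.59 log2. The ratio of pooled reads was 11.6 (95% exact interval 8.63 to 16.0, counting error only). By its p-value Ly6c2 ranked 19 of the 9374 genes in that comparison, and by its log2 difference 101. Ly6c1, its near copy, gave 11, 9 and 22 reads in WT-Saline and 6, 8 and 22 in WT-LPS, a difference of -0.34 ± 0.88 log2 that was not called (adjusted p = 0.866).

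Ly6g, the neutrophil marker gene, was low in WT-Saline, with 4, 5 and 9 reads, and gave 18, 51 and 58 reads in WT-LPS. In CPM these were 9.7, 10.6 and 16.8 against 42.7, 108 and 108, so the first LPS library was well below the other 2 but above all saline libraries. The mean rose from 12.3 ± 3.86 to 86.0 ± 37.5 CPM (SD, n = 3), or by 2.62 ± 0.48 log2 with an adjusted p of 0.000346. The ratio of pooled reads was 7.0 (4.26 to 12.2), an interval of counting error only, whose width reflects the 18 reads of the saline group. By mean reads Ly6g ranked 2851 in the table, the lowest of the 4 genes.

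Ly6e, known as an interferon-inducible gene, was the most abundant by reads and ranked 490. It gave 57, 84 and 135 reads in WT-Saline and 230, 309 and 300 in WT-LPS, or 189 ± 57.6 and 585 ± 58.2 CPM (SD, n = 3). The rise was 1.66 ± 0.32 log2 (adjusted p = 0.000761). Ly6a, the Sca-1 gene, gave 32, 68 and 45 reads in WT-Saline and 69, 91 and 140 in WT-LPS, which is 77.5, 144 and 83.8 CPM against 164, 192 and 260 CPM. Here the second saline library came close to the first LPS library, and the rise of 1.03 ± 0.34 log2 had an adjusted p of 0.0456. It no longer passed with quantile normalization (0.0531), with total reads as library size (0.0609), without a mean-variance trend (0.211), or when any 1 of 8 libraries was left out (WT-Saline replicates 1 and 3 and all WT-LPS and KO-Saline replicates), at values between 0.0569 and 0.203. Without a trend Ly6e was not called either (adjusted p = 0.0751).

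**Figure D1:**
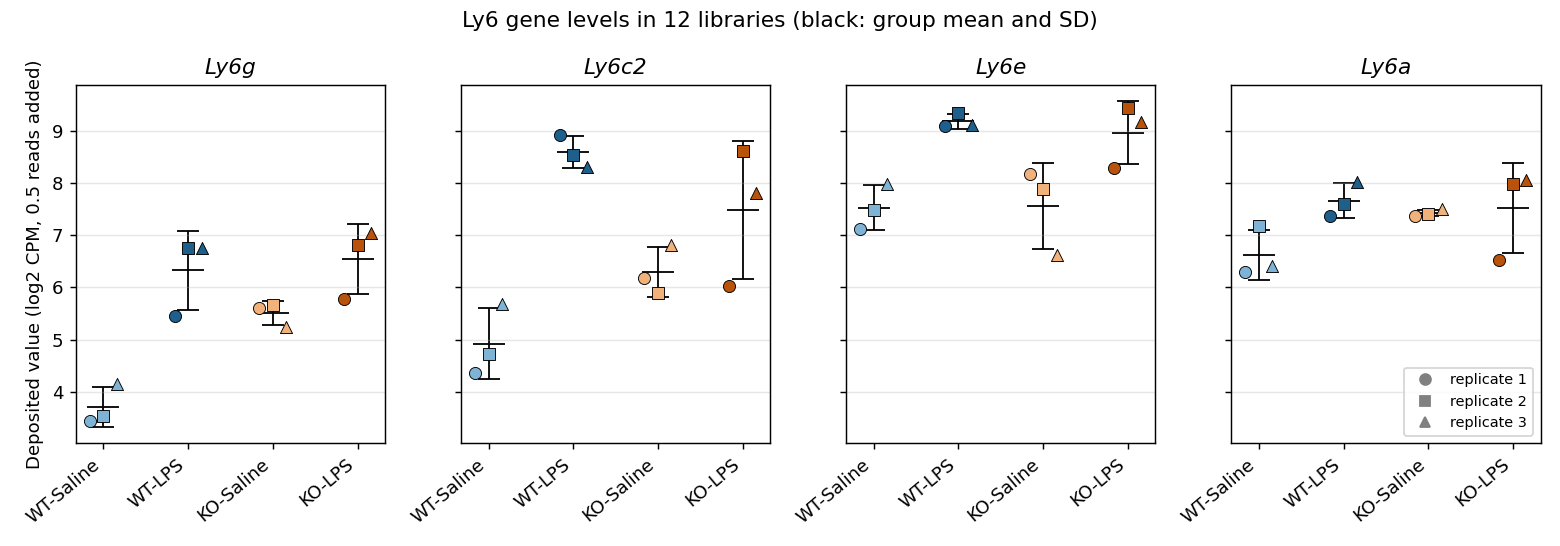
Deposited log2 CPM values of Ly6g, Ly6c2, Ly6e and Ly6a in the 12 libraries, 1 point per library with its shape giving the replicate number, and black bars for the group mean and SD (n = 3). For each gene the 3 WT-LPS points lie above the 3 WT-Saline points, and KO-LPS replicate 1 is the lowest of its group.

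In KO-labelled libraries 1 of the 4 genes was called higher with LPS, Ly6e, where 1.99% of all genes were called higher; without KO-LPS replicate 1 the genes called were Ly6e and Ly6c2, against 5.97% of all genes. Ly6e gave 110, 109 and 40 reads in KO-Saline libraries and 117, 281 and 271 in KO-LPS. In CPM these were 289, 236 and 97.3 against 312, 693 and 581, so the groups did not overlap, although the lowest KO-LPS value was only slightly above the highest KO-Saline value. All KO-LPS libraries lay above all KO-Saline libraries for 10.8% of genes. The rise was 1.41 ± 0.32 log2 (limma adjusted p = 0.0124) with all libraries and 1.75 ± 0.30 (4.3e-05) without KO-LPS replicate 1. Its call was lost without KO-Saline replicate 3 (0.94 log2, adjusted p = 0.140), KO-LPS replicate 2 (0.145) or KO-LPS replicate 3 (0.0967), and also without a mean-variance trend (0.231) and with only the 2 groups compared (0.0698).

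Ly6c2 gave 27, 27 and 46 reads in KO-Saline libraries and 24, 158 and 105 in KO-LPS, that is 70.9, 58.6 and 112 CPM against 64.0, 390 and 225 CPM. Replicate 1 of KO-LPS sat among the saline libraries and the other 2 above all of them. The difference was 1.19 ± 0.45 log2 with all libraries (limma adjusted p = 0.154) and 1.92 ± 0.36 without replicate 1 (0.000196), but 0.63 without KO-LPS replicate 2 (adjusted p = 0.654). Ly6g gave 18, 23 and 15 reads in KO-Saline libraries and 20, 45 and 61 in KO-LPS. Its CPM were 47.2, 49.9 and 36.5 against 53.4, 111 and 131, so its groups did not overlap either, and the difference was 1.04 ± 0.48 log2 (adjusted p = 0.256), or 1.42 ± 0.50 (0.0607) without replicate 1. Neither value passed.

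Ly6a showed the lowest LPS difference in KO-labelled libraries. It gave 63, 78 and 74 reads in KO-Saline libraries and 34, 102 and 124 in KO-LPS, or 165, 169 and 180 CPM against 90.7, 252 and 266 CPM. The KO-Saline libraries were close together, while KO-LPS replicate 1 was below all of them and the other 2 above. The difference was 0.09 ± 0.34 log2 (95% interval -0.61 to 0.79, adjusted p = 0.927), and 0.59 ± 0.29 (-0.01 to 1.18, adjusted p = 0.209) without replicate 1. It turned to -0.14 without KO-LPS replicate 2 and to -0.18 without KO-LPS replicate 3. KO-LPS replicates 2 and 3 were above all KO-Saline libraries for all 4 Ly6 genes, a pattern that 21.5% of all genes shared.

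Marker levels that moved beside these values were as follows. Of the 14 neutrophil markers, 7 were called higher and 2 lower with LPS in WT, and 5 were not called. Among all genes, 6.72% were called higher and 4.96% lower there. In KO-labelled libraries 4 were called higher and 1 lower, against 1.99% and 1.35% of all genes. The sums below thus do not stand for a rise of every marker. Neutrophil markers summed to 14530 to 19313 CPM in WT-Saline and 20449 to 23352 in WT-LPS libraries, and to 19930 to 20355 in KO-Saline and 22746 to 23821 in KO-LPS libraries. The 6 measured monocyte and macrophage markers, cells that carry Ly6C, summed to 441 to 612, 439 to 608, 386 to 440 and 462 to 506 CPM in the same order. In WT, LPS raised Nr4a1 (2.10 ± 0.40 log2, limma adjusted p = 0.000645) and lowered Apoe (-3.36 ± 0.73, 0.00232) and Csf1r (-0.89 ± 0.27, 0.0282) among them. Csf1r overlaps exons on the opposite strand over 873 bases. The dendritic cell marker Clec9a and the platelet marker Clec1b were at 0 reads in WT-LPS. Of the 7 measured dendritic cell markers, 2 were called lower in WT and 5 were not called, against 4.96% of all genes called lower. Of the 4 measured platelet markers, 3 fell in WT, where 4.96% of all genes were called lower. The 2 measured B cell markers summed to 18.6 to 48.6 CPM in WT-Saline and 114 to 151 in WT-LPS libraries, and to 24.3 to 39.4 in KO-Saline and 45.4 to 124 in KO-LPS libraries. Of these only Cd79a was called higher with LPS, by 2.61 ± 0.55 log2 in WT and 2.17 ± 0.55 in KO-labelled libraries. Cd74 was called in neither label, where 6.72% and 1.99% of all genes were called higher. The median difference of the 2 markers was 1.865 log2 in WT and 0.46 in KO-labelled libraries. In bulk RNA, fewer cells of a type and less RNA per cell cannot be told apart, and the part of cell make-up in the Ly6 values was not tested.

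Between genotype labels no Ly6 gene was called in any comparison that used all 12 libraries. In saline, Ly6g, Ly6c2 and Ly6a were each higher in all 3 KO-Saline libraries than in all 3 WT-Saline libraries, a pattern that 6.77% of all genes shared, and Ly6e was not. The KO-Saline means were 44.5 ± 7.11 CPM for Ly6g, 80.4 ± 27.9 for Ly6c2, 172 ± 7.58 for Ly6a and 207 ± 99.0 for Ly6e, against WT-Saline means of 12.3 ± 3.86, 31.7 ± 16.4, 102 ± 36.6 and 189 ± 57.6 CPM (SD, n = 3). The difference was 1.79 ± 0.48 log2 for Ly6g (limma adjusted p = 0.294) and 1.38 ± 0.45 for Ly6c2 (limma adjusted p = 0.510), which ranked 23 and 84 of 9374 by p-value. It was 0.80 ± 0.34 for Ly6a (adjusted p = 0.666) and 0.04 ± 0.32 for Ly6e (95% interval -0.63 to 0.70, adjusted p = 0.989). Of all genes 0.0107% were called, 1 gene, with 643 at an unadjusted p under 0.05. Leaving out KO-LPS replicate 1, which changes only the estimate of the spread here, gave limma adjusted p = 0.0437 for Ly6c2 and 0.0714 for Ly6g. That fit called 20 of 9374 genes higher and 11 lower.

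In counts, the 3 KO-Saline libraries held 56 Ly6g reads against 18 in WT-Saline, a pooled ratio of 3.53 (95% exact interval 2.05 to 6.39). That interval covers counting error only and leaves out the spread among libraries. With the spread included, Ly6g was not called between the labels in saline (limma adjusted p = 0.294). These comparisons share their saline libraries: the low WT-Saline values enter both the LPS difference in WT and the saline difference between labels, so the latter is no separate evidence on the former. The neutrophil marker sum was also higher in each KO-Saline library than in each WT-Saline library. The monocyte marker sums nearly met (386 to 440 in KO-Saline against 441 to 612 CPM in WT-Saline), where 1 read was worth about 1.86 to 2.67 CPM. The part of either sum in the Ly6 values was not tested.

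Under LPS no Ly6 gene was called between the labels (0 of all 9374 genes were, with 471 at an unadjusted p under 0.05 by limma). KO-LPS means were 98.4 ± 40.2 CPM for Ly6g, 226 ± 163 for Ly6c2, 529 ± 196 for Ly6e and 203 ± 97.3 for Ly6a, and WT-LPS means 86.0 ± 37.5, 391 ± 84.6, 585 ± 58.2 and 205 ± 49.7 CPM (SD, n = 3). The largest difference was that of Ly6c2, -1.10 ± 0.45 log2 (limma adjusted p = 0.949), which was -0.38 ± 0.36 (adjusted p = 0.997) without KO-LPS replicate 1. For Ly6g, Ly6e and Ly6a it was 0.21 (95% interval -0.76 to 1.19), -0.22 (-0.88 to 0.45) and -0.14 (-0.84 to 0.56), intervals that leave room for changes of about 1 log2 unit in Ly6g. Without KO-LPS replicate 1 these values were 0.60, 0.12 and 0.36, so those of Ly6e and Ly6a turned. That of Ly6g was -0.04 without KO-LPS replicate 3 and -0.22 without WT-LPS replicate 1. Without KO-LPS replicate 2 that of Ly6c2 was -1.67 (limma adjusted p = 0.222). Across both treatments the difference of Ly6g was 1.0 ± 0.34 (adjusted p = 0.732), where 0.0107% of genes were called.

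The interaction, the LPS difference in KO-labelled libraries minus that in WT, was negative for all 4 genes and called for none. It was -2.48 ± 0.63 log2 for Ly6c2 (limma adjusted p = 0.367), -1.58 ± 0.67 for Ly6g (0.815), -0.94 ± 0.48 for Ly6a (0.850) and -0.26 ± 0.46 for Ly6e (0.962), each with its adjusted p. No gene of the table was called for the interaction, with 560 at an unadjusted p under 0.05. Without KO-LPS replicate 1 the value of Ly6c2 was -1.75 ± 0.49 (adjusted p = 0.318), and that of Ly6e was 0.08. Without KO-LPS replicate 2 the interaction of Ly6c2 was called (-3.04, limma adjusted p = 0.0345). That fit called 4 of 9374 genes higher and 3 lower, and its KO-LPS mean rests on replicates 1 and 3.

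**Figure D2:**
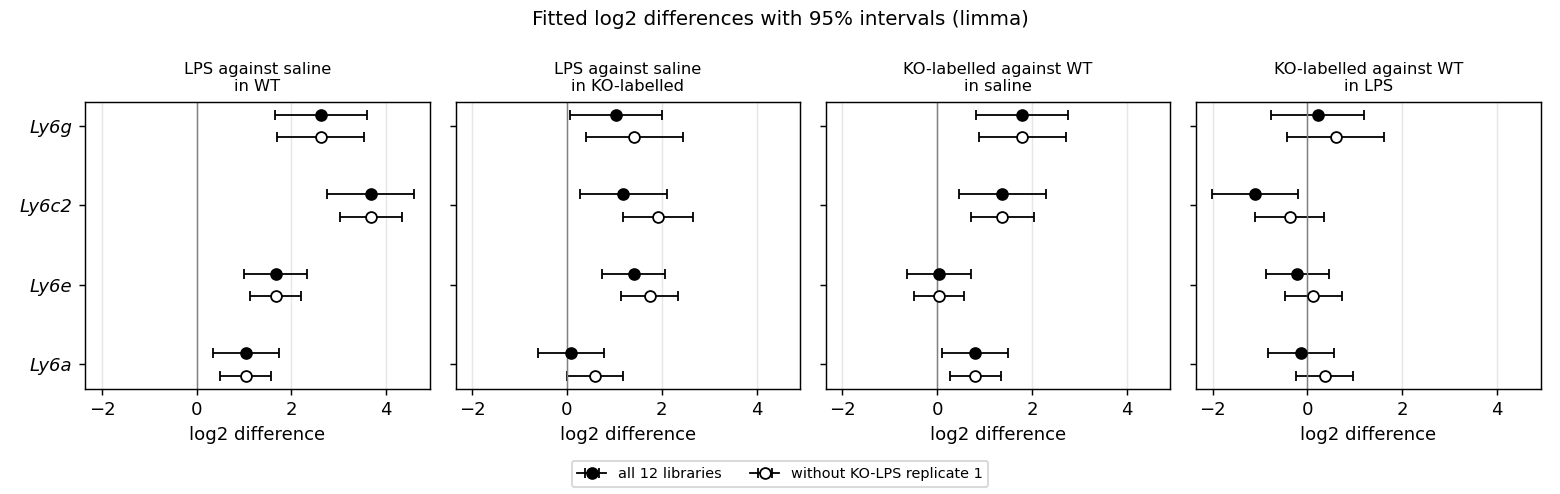
Fitted log2 differences of the 4 Ly6 genes with 95% intervals (limma) for 4 comparisons, filled circles with all 12 libraries and open circles without KO-LPS replicate 1. The differences with LPS in WT lie above 0 for all 4 genes, from 1.03 to 3.67, and those in KO-labelled libraries move up when that library is left out.

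Read over both labels, the LPS difference was tested by exact permutation of the treatment labels within each genotype label, with 400 arrangements and a smallest possible p of 0.005 (two-sided, 4 genes tested). The mean difference was 1.83 log2 for Ly6g (exact permutation p = 0.005), 1.54 for Ly6e (p = 0.005), 2.43 for Ly6c2 (exact permutation p = 0.015) and 0.56 for Ly6a (p = 0.13). Adjusted over the 4 genes, the exact permutation p was 0.01 for Ly6g and Ly6e, 0.02 for Ly6c2 and 0.13 for Ly6a. Ly6a thus did not pass over both labels. Without KO-LPS replicate 1 its mean difference was 0.81 (exact permutation p = 0.005, from fewer arrangements).

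Whether the members differed from each other in their response was tested on their log2 difference within each library, where library size cancels. Ly6c2 responded more than Ly6a by 1.87 log2 and Ly6g more than Ly6a by 1.27 (exact permutation p = 0.005 each, adjusted over the 6 pairs 0.015), with differences in both labels (2.64 and 1.10 for Ly6c2, 1.58 and 0.95 for Ly6g, WT and KO-labelled). Ly6e responded more than Ly6a by 0.97 (exact permutation adjusted p = 0.03), a call that was lost when any 1 of 7 libraries was left out (adjusted p 0.05 to 0.08). The pairs Ly6c2 and Ly6e (0.90, exact permutation adjusted p = 0.195), Ly6g and Ly6c2 (-0.60, 0.234) and Ly6g and Ly6e (0.29, 0.335) did not pass. Between Ly6c2 and Ly6e the labels gave unlike values, 2.01 in WT and -0.22 in KO-labelled libraries, the second with KO-Saline replicate 3, where Ly6e was at its lowest and Ly6c2 at its highest of that group.

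**Figure D3:**
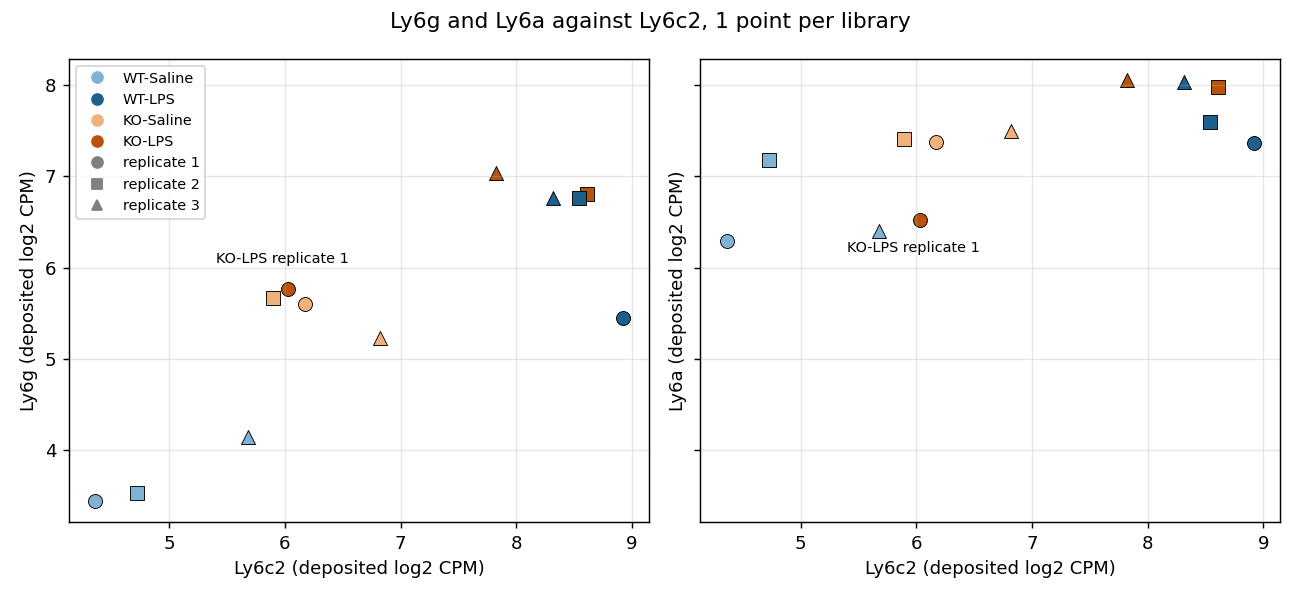
Ly6g (left) and Ly6a (right) against Ly6c2 in deposited log2 CPM, 1 point per library, colour for the group and shape for the replicate number. WT-Saline libraries are at the left and LPS libraries other than KO-LPS replicate 1 at the right; that library sits near the saline libraries in both panels.

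The order of the groups differed by gene. For Ly6g the mean log2 level was lowest in WT-Saline, then KO-Saline, WT-LPS and KO-LPS, and only WT-Saline and KO-Saline did not overlap as neighbours. For Ly6c2 it was WT-Saline, KO-Saline, KO-LPS and WT-LPS, again with a gap only between the first 2. Ly6a had that same order and the same single gap. For Ly6e the gap fell between KO-Saline and KO-LPS, and the 2 saline groups differed by 0.04 log2. Per kilobase of the longest coding transcript, the mean level in WT-Saline was 106 CPM for Ly6a, 82.9 for Ly6e, 38.5 for Ly6c2 and 13.1 for Ly6g, and in WT-LPS 475 for Ly6c2, 256 for Ly6e, 215 for Ly6a and 91.4 for Ly6g. Per kilobase of all annotated exons the WT-LPS levels were 170, 155, 143 and 91.3 for Ly6a, Ly6e, Ly6c2 and Ly6g, so Ly6c2 was the highest only on the first scale. In WT-Saline that scale gave 84.4, 49.9, 11.6 and 13.1 CPM for the same genes, which turns the order of Ly6c2 and Ly6g.

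Summed over the 6 genes of the cluster, the mean level with LPS was 1317 ± 54.5 CPM in WT and 1116 ± 487 in KO-labelled libraries, against 381 ± 97.0 and 530 ± 65.6 with saline (SD, n = 3), KO-LPS replicate 1 being at 563. The share of each gene in these reads, which is not corrected for length, can be set side by side between groups. Ly6c2 gave 8.06% ± 2.48 of them in WT-Saline and 29.8% ± 7.28 in WT-LPS libraries, against 15.7% ± 7.38 in KO-Saline and 18.3% ± 7.54 in KO-LPS libraries. Ly6a gave 27.2% ± 8.60, 15.6% ± 3.81, 32.8% ± 5.62 and 17.8% ± 2.26 in the same order. The Ly6g share was 3.25% ± 0.58 in WT-Saline and 6.48% ± 2.71, 8.40% ± 0.82 and 9.0% ± 1.33 in the others, and KO-LPS replicate 1, at 9.48%, did not stand apart in it. The Ly6e share ranged from 21.1% in KO-Saline replicate 3 to 55.5% in KO-LPS replicate 1.

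The other 4 measured genes of the Ly6/uPAR family, of 51 family genes listed, were not called in any comparison of treatments or labels. Ly6i had 1 to 32 reads per library and differed with LPS by 1.0 ± 0.84 log2 in WT and 1.63 ± 0.84 in KO-labelled libraries (limma adjusted p = 0.521 and 0.323). Ly6c1 had 0 to 22 reads. Plaur, the urokinase receptor, which helps leukocytes cross tissue, gave 57, 45 and 59 reads in WT-Saline and 67, 88 and 114 in WT-LPS, with differences of 0.70 ± 0.29 in WT (adjusted p = 0.130) and 0.57 ± 0.29 in KO-labelled libraries (0.318). Lypd6b had 0 to 8 reads, too few to compare.

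The measured genes on either side of the cluster were far away, Adgrb1 365586 bases before it and Zc3h3 595304 bases after it. None of the 4 nearest, which also include Ptp4a3 and Gsdmd, the gene of the pore-forming gasdermin D, was called with LPS. Gsdmd differed by 0.20 ± 0.40 log2 in WT (limma adjusted p = 0.825) and 0.96 ± 0.40 in KO-labelled libraries (0.212). Within the cluster, Ly6c1 lay between the called genes Ly6a and Ly6c2 without being called itself.

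**Figure D4:**
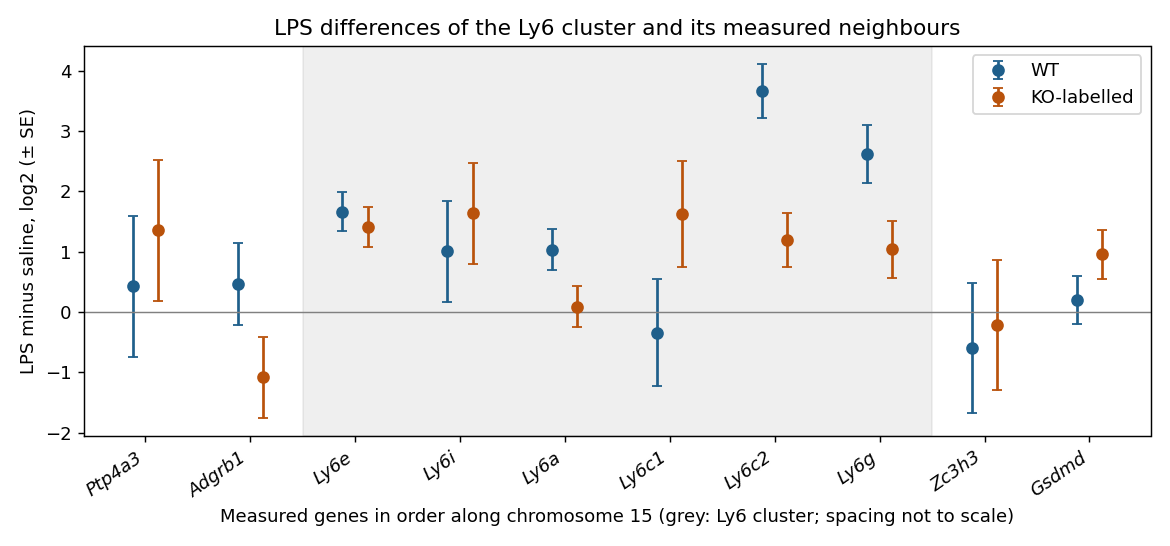
LPS minus saline in log2 (± SE, limma, n = 3 per group) for the 6 measured cluster genes and the 2 nearest measured genes on each side, in their order along chromosome 15, in WT and KO-labelled libraries. In WT, Ly6e, Ly6a, Ly6c2 and Ly6g are the called genes, Ly6c2 being highest at 3.67, and the genes outside the grey area stay within about 1 log2 unit of 0 in WT.

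Other genes bear on how Ly6 proteins reach the membrane. Of 22 measured genes of GPI anchor synthesis and transfer, 0 rose and 2 fell with LPS in WT, where 6.72% of all genes rose and 4.96% fell. These were Pigl and Pigb, both of which overlap exons on the opposite strand, and the median difference was 0.02 log2 against 0.06 over all genes. Among 14 other GPI-anchored leukocyte proteins 5 rose and 1 fell in WT, and 4 rose and 0 fell in KO-labelled libraries, where 1.99% of all genes rose and 1.35% fell. Their medians were 0.86 and 0.77 log2, against 0.06 and 0.09 over all genes. Prnp, the prion protein gene, had 0 reads in the saline libraries of WT and 62 in WT-LPS, Cd177, a GPI-anchored neutrophil antigen, rose by 3.30 ± 0.41 log2 (limma adjusted p = 4.04e-06), and Vnn3, a vanin, fell by 3.83 log2 (adjusted p = 0.000159).

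Interferon-stimulated genes were described beside Ly6e and Ly6a, which are known as such. Of 42 measured, 25 rose and 0 fell with LPS in WT and 10 rose and 0 fell in KO-labelled libraries, where 6.72% and 1.99% of all genes rose. The medians were 1.52 and 0.88 against 0.06 and 0.09 over all genes. Ifit2, an antiviral gene, rose by 4.27 ± 0.76 log2 and Zbp1, a nucleic acid sensor, by 3.71 ± 0.51 (limma adjusted p = 0.00026 and 1.39e-05). Of 17 signalling genes 4 rose in WT and 1 in KO-labelled libraries, and their medians, 0.21 and 0.03 log2, were close to those of all genes. Among the 4 were Irf7 (2.10 ± 0.25, adjusted p = 2.58e-06) and Stat2 (2.21 ± 0.37, 0.000145). The summed level of interferon-stimulated genes in KO-LPS replicate 1 was 9428 CPM, the highest of its group (7892 to 9428) and above all KO-Saline libraries (5784 to 6459), whereas its Ly6e value was the lowest of its group. Of 19 specific granule genes, made during neutrophil maturation, 11 rose in WT and 8 in KO-labelled libraries, with medians of 2.19 and 1.42, against the same 6.72% and 1.99% of all genes; Ngp rose by 5.89 ± 0.55 in WT (adjusted p = 1.84e-07).

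The genes whose levels were most like each member were ranked by Pearson's r over the 12 libraries among 4640 genes with at least 10 reads on average, leaving out predicted genes, pseudogenes and the members. These r share the 4 group differences and the library depths, so the same r with the group means taken off is given beside them. Taking off the means leaves in the deviation of KO-LPS replicate 1 from its group. For Ly6c2 the SD was 1.32 log2 in KO-LPS, against 0.31 to 0.68 in the other groups. Genes that also deviate in that library can thus have a high r within groups, and r without it is not given. For Ly6c2 the first was Itgb1, the integrin beta-1 gene (r = 0.98, within groups 0.91), then Srebf2, a sterol-responsive transcription factor (0.97 and 0.90), Mroh2a, Gpx3 and Snx22. For Ly6e it was Flot2, a membrane scaffold gene (0.98 and 0.92), before St8sia1, St3gal1, Tmem198b and Sptbn1, the first 2 of which encode sialyltransferases. For Ly6g it was Syne2 (0.93 and 0.55), before Sqor, Wfdc21, Bysl and Ltb4r1, a leukotriene B4 receptor gene, and for Ly6a it was Ccdc39 (0.91 and 0.91), before Stab1, Bnip2, Tm6sf1 and Fbxo24. All 5 of the Ly6a list, and Bysl, Snx22, St8sia1, Tmem198b and Sptbn1, overlap exons on the opposite strand. Among the members themselves r ran from 0.57 (Ly6a and Ly6e) to 0.83 (Ly6c2 and Ly6g), and within groups from 0.39 (Ly6a and Ly6e) to 0.63 (Ly6e and Ly6g).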

How the data were processed

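Total RNA was sequenced from neutrophils of 12 mouse blood samples, 3 in each of 4 groups, after the miRNeasy micro kit and a Tecan total RNA library kit, per the labels' protocols. The authors deposited normalized values on a log2 scale for 9374 genes by NCBI Gene ID. The deposited log2 values have the form of log2 CPM with 0.5 reads added, since undoing that form gave whole reads (tolerance 0.0001) for 100% of values, column by column in all 12. Per the submitters' processing notes the build was mm10; the aligner, counter, strand setting and gene filter are not stated. Depth is that of the recovered reads, 399702 to 526757 per library, with a median of 11.33 reads per gene and library, and 6.93% to 19.19% of genes at 0. Symbols were found for 9372 IDs, and 8816 were matched to GENCODE M21, 3166 of them (35.9%) with exons overlapping the opposite strand.

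The deposited values were fitted with limma 3.58.1 in R 4.3.3 as 4 group means over all 12 libraries and a trend of the variance with the mean. The two-sided p-values were adjusted by Benjamini-Hochberg over all 9374 genes, and genes under 0.05 were called; ± after a log2 difference is its standard error. The 0.5 reads added make the differences of low genes too small. A count model was planned only for a table of counts, so none was run on this log2 table, although reads could be recovered from it. Exact permutation tests were run with Python 3.11.15. Both scripts were tested on simulated data. The members and lists were chosen with earlier results of these data known. Named genes were the members, the other family genes measured, the 2 nearest measured genes on each side, the 5 genes most correlated with each member, and up to 3 called genes of largest change per list, of which some are given only as counts. The alternatives were no trend, voom weights, 2 reads added, a filter of 10 reads on average, quantile normalization, total reads as library size, the 2 groups compared alone, a replicate block, and each library left out.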

Additional observations from a re-analysis of the deposited data

How the results depend on the processing

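In WT the LPS differences of Ly6c2 and Ly6g were called under every alternative run, from 3.39 to 4.05 and 2.36 to 3.05 log2; those of Ly6e and Ly6a kept their direction, with the lost calls given above. Without a trend the genes called with LPS fell from 1095 to 363 in WT, 2 of the 4 Ly6 genes among them, and from 314 to 16 in KO-labelled libraries, with 0 Ly6 genes; with only the 2 groups compared the latter were 82 and 0. Leaving out 1 library at a time gave 32 to 1076 genes and 0 to 2 Ly6 genes for LPS in KO-labelled libraries, the highest counts without KO-LPS replicate 1 and the lowest gene count without KO-LPS replicate 2. It gave 0 to 1 Ly6 genes for the labels compared in saline (called without KO-LPS replicate 1) and for the interaction (without KO-LPS replicate 2), the gene being Ly6c2. Over all genes, the count for the labels was 1 in saline (0 to 31 under the alternatives), 0 in LPS (0 to 2), 1 averaged (0 to 11) and 0 for the interaction (0 to 7). The LPS difference over both labels ranged from 0.43 to 0.81 for Ly6a, that of Ly6c2 minus Ly6e from 0.71 to 1.26 (exact permutation adjusted p = 0.04 without KO-Saline replicate 3), and that of Ly6e minus Ly6a from 0.72 to 1.14. The cause of these changes was not tested.

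Replicate numbers are shared by the groups, but same-numbered libraries did not deviate together (correlations of -0.066 to 0.040). A replicate block gave 1086 genes in WT and 336 in KO-labelled libraries, with 4 and 1 Ly6 genes called, as without it. With 4 to 9 Ly6g reads per WT-Saline library, depth limits the size of its change more than its direction.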
